A study of Abies pinsapo with 24 samples.

Results

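The antioxidant enzymes and thioredoxins of the Spanish fir (Abies pinsapo, a relict conifer of southern Spain) were followed through RNA-seq read counts in the needles and roots of wild trees. Members were all features of the count table whose best protein hit was from a land plant and was named as a superoxide dismutase, catalase, ascorbate peroxidase, mono- or dehydroascorbate reductase, glutathione reductase, glutathione peroxidase, peroxiredoxin, thioredoxin, glutaredoxin or ferredoxin-thioredoxin reductase. The rule found 196 of the 51046 features and used no measured value. They comprised 63 thioredoxins, 22 glutaredoxins, 20 ascorbate peroxidases, 20 peroxiredoxins, 15 superoxide dismutases, 14 catalases, 14 glutathione peroxidases, 10 thioredoxin reductases, 9 ferredoxin-thioredoxin reductase chains, 6 monodehydroascorbate reductases and 3 glutathione reductases. No member had a plain dehydroascorbate reductase as its best hit. The families are matches of words in the best-hit name, so they also hold proteins that are not the enzyme. The superoxide dismutases include 3 features named as the copper chaperone for superoxide dismutase. The thioredoxins include thioredoxin-like and thioredoxin-domain proteins such as YLS8 and PLP3B, and a TPR repeat-containing thioredoxin named as inactive (TTL3).

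Samples came from needles and roots, harvested in May 2023 (spring) and September 2022 (autumn), at Ronda (1700 to 1800 m, the upper limit of the forest in Sierra de las Nieves) and at Yunquera (1100 to 1200 m, its lower limit). The trees were 30 to 50 years old and each of the 8 groups had 3 numbered individuals, trees 4 to 6 at Ronda and trees 1 to 3 at Yunquera. Season is also the calendar year of harvest, and roots and needles were extracted by different methods, so organ cannot be told apart from extraction, nor season from year. The protocol names 6 trees and the series description names a larger number of individuals, nothing says whether libraries were pooled or a number means 1 tree throughout, and p-values measure the spread between these samples.

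Plants remove superoxide with superoxide dismutases, which make hydrogen peroxide, and remove hydrogen peroxide with catalases, ascorbate peroxidases, peroxiredoxins and glutathione peroxidases. Monodehydroascorbate reductase and glutathione reductase return the oxidised ascorbate and glutathione to their reduced forms. Thioredoxins and glutaredoxins are small proteins that reduce disulfide bonds of other proteins. In chloroplasts the electrons for thioredoxins come in the light from ferredoxin through ferredoxin-thioredoxin reductase, and elsewhere mostly from NADPH through thioredoxin reductases. Evergreen conifers are known to adjust these systems between seasons, as cold limits the use of absorbed light.

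Total counts ran from 13355301 to 27427263 per library. Light harvesting and photosystem transcripts made up 2.42 to 5.06% of each of 11 needle libraries, and 0.0322 to 0.106% of each of 11 root libraries. The library labelled spring roots of Ronda, tree 5, had 2.78%, and the library labelled spring needles of Ronda, tree 6, had 0.0268%, so both went against their labels. These 2 libraries were set aside, which left 5 spring and 6 autumn libraries of each organ. Features with a fungal best hit took 0.688 to 4.01% of root counts, and features of the same enzyme names with a best hit outside land plants took at most 0.0545% in any library used.

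Levels are normalised read counts (CPM, counts scaled to library size), given as mean ± SD with 5 spring and 6 autumn libraries of an organ. Changes are log2 fold changes ± standard error from edgeR's quasi-likelihood test, spring minus autumn, Ronda minus Yunquera or needles minus roots. A member was called when its p, adjusted over all features tested by the Benjamini-Hochberg method, was under 0.05. A member that was not called is not thereby shown to be the same in both groups. Names are those of the best hit, not names established in fir. Of the members, 151 shared a best-hit entry with another member, and close copies can share reads, so the separate values of such members are uncertain. Of the 196 members, 185 are gene models, with names of the form Gene_2831. A start at position 1 of the reference sequence held for 190 members, and the peroxiredoxin ap_5459 spans bases 149 to 2878 of its sequence.

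Counts were present for 134 of the 196 members, and 62 had none in any library. All 59 members that overlapped another feature on the same reference sequence had no count, against 3 of the 137 that overlapped none. Over the whole table, 19752 of 20124 overlapping features and 2638 of 30922 others had no count. The members without counts included all 4 features named monothiol glutaredoxin-S17, all 6 named AAED1, both peroxiredoxin Q features, all 3 of peroxiredoxin-2B, all 4 of Catalase-3, both of HCF164 and all 3 of the variable chain of ferredoxin-thioredoxin reductase. For these names the table holds no measurement of expression.

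Together the members took 1.57 to 1.93% of the counts in spring needles and 1.64 to 1.96% in autumn needles. In roots they took 1.04 to 1.38% in spring and 1.07 to 1.502% in autumn. The 10 most abundant held 47.2% of the member counts in needles and 65.0% in roots. Per kilobase of feature, the highest was the copper-zinc superoxide dismutase SODCC (Gene_2831), at 951 CPM per kb in needles and 1349.6 CPM per kb in roots. The cytosolic ascorbate peroxidase APX1 (Gene_2842) stood at 831 CPM per kb in needles and 995 CPM per kb in roots, a peroxiredoxin-2 (Gene_2790) at 925 and 1087, and a glutaredoxin (Gene_2944) at 865 and 1042, in the same order of organs. These 4 were not called for season in needles or in roots. SODCC, for example, averaged 772 ± 92.7 CPM in spring needles and 941 ± 172 CPM in autumn needles, a log2 change of -0.31 ± 0.16 (edgeR adjusted p = 0.225).

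Needles differed by season in 31 of the 120 members tested, 22 higher and 9 lower in spring. Over all 20560 features tested, 15.3% were called in either direction, 8.79% higher and 6.49% lower. The median log2 change was 0.16 over the members tested and 0.03 over all features. Of the 22 higher members, 11 were thioredoxins and 4 were ascorbate peroxidases with the name of the cytosolic form APX2. Of the 9 lower members, 5 had chloroplast in the best-hit name, among them enzymes that recycle ascorbate and glutathione or consume peroxide. Photosystem and light harvesting transcripts, summed, took 3.60 to 5.06% of counts in spring needles and 2.42 to 4.08% in autumn needles, and their part in these differences was not tested. In bulk tissue, fewer cells of a type and less RNA per cell cannot be told apart.

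The largest of these falls was in monodehydroascorbate reductase. MDAR5 (Gene_31739), named for the enzyme of chloroplasts and mitochondria that regenerates ascorbate, had 26.3 and 22.4 CPM in spring needles of Ronda and 18.3, 26.2 and 31.3 CPM in those of Yunquera, against a lowest value of 155, a median of 242 and a highest of 282 CPM in the 6 autumn needle libraries. The seasons were far apart and did not overlap. The means were 24.9 ± 4.86 CPM in spring and 227 ± 47.5 CPM in autumn, a log2 change of -3.20 ± 0.20 (edgeR adjusted p = 6.96e-05). All 5 same-numbered pairs were lower in spring, which follows from the lack of overlap. Of the other 3 monodehydroascorbate reductases tested, none was called.

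Chloroplast glutathione reductase (Gene_28707, best-hit symbol EMB2360), which keeps glutathione reduced, moved the same way. It had 156 and 190.0 CPM in spring needles of Ronda and 173, 184 and 163 CPM in those of Yunquera, against 313, 375 and 571 CPM as the lowest, median and highest in autumn needles. No autumn library came down to the spring range, and the log2 change was -1.21 ± 0.16 (edgeR adjusted p = 0.00210). The other glutathione reductase tested, the cytosolic form (Gene_7716), was not called at 0.23 ± 0.12 (edgeR adjusted p = 0.210).

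Ascorbate peroxidases, which reduce hydrogen peroxide with ascorbate, were called in both directions. The thylakoid form APXT (Gene_15338) averaged 21.3 ± 6.95 CPM in spring needles and 50.8 ± 12.5 CPM in autumn needles, a log2 change of -1.37 ± 0.24 (edgeR adjusted p = 0.00597), without overlap. Cytosolic APX2 (Gene_4612) went the other way, with 120.5 and 61.5 CPM in spring needles of Ronda and 76.7, 69.9 and 53.8 CPM in those of Yunquera, against 17.8, 26.8 and 36.0 CPM as the lowest, median and highest in autumn. Every spring library lay above every autumn one (1.55 ± 0.20, edgeR adjusted p = 0.00139). Further APX2 features, Gene_70037, Gene_23675 and ap_74237, were also called higher in spring, at log2 changes of 1.27, 1.07 and 0.90, and all 4 carry the same best-hit name. Features ap_180 and Gene_75729, which carry that name too, were tested in needles and not called. A second APXT feature (Gene_70859), with the best-hit name of Gene_15338, was also not called. It averaged 27.3 CPM in spring needles and 32.2 CPM in autumn needles. In all, 4 of 12 ascorbate peroxidases tested were higher and 1 lower.

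Among the enzymes that handle peroxides with thiols, glutathione peroxidases (which in plants mostly draw on thioredoxin) gave 3 higher and 1 lower of 13 tested. The higher ones were CSA (Gene_7204, 0.88 ± 0.17), Gene_3688 (0.50 ± 0.10) and Gene_5478 (0.37 ± 0.10), and the lower one was Gene_7149 (-0.97 ± 0.22). Peroxiredoxins gave 1 lower and 1 higher of 8 tested. The chloroplast peroxiredoxin-2E-1 at ap_5459 averaged 147 ± 46.4 CPM in spring and 302 ± 34.7 CPM in autumn (-1.10 ± 0.19, edgeR adjusted p = 0.00556). The higher one, a peroxiredoxin-2 feature (Gene_3494), was near the detection limit, at 1.33 ± 0.87 CPM in spring and 0.322 ± 0.37 CPM in autumn, with all 3 autumn libraries of Yunquera at 0. Its seasonal fold change is not given for that reason. Another feature named peroxiredoxin-2E-1 (Gene_14290) was not called, at 32.0 CPM in spring needles and 18.2 CPM in autumn needles, the opposite direction to ap_5459.

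Of 9 superoxide dismutase features tested, which included the copper chaperone CCS (Gene_52674), 1 was called. The manganese enzyme of mitochondria, SODA (Gene_5755), averaged 139 ± 30.2 CPM in spring and 222 ± 37.5 CPM in autumn (-0.73 ± 0.15, edgeR adjusted p = 0.0122). No catalase of the 5 tested was called in needles, and 0 of the 5 had an unadjusted p under 0.05.

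**Figure D1:**
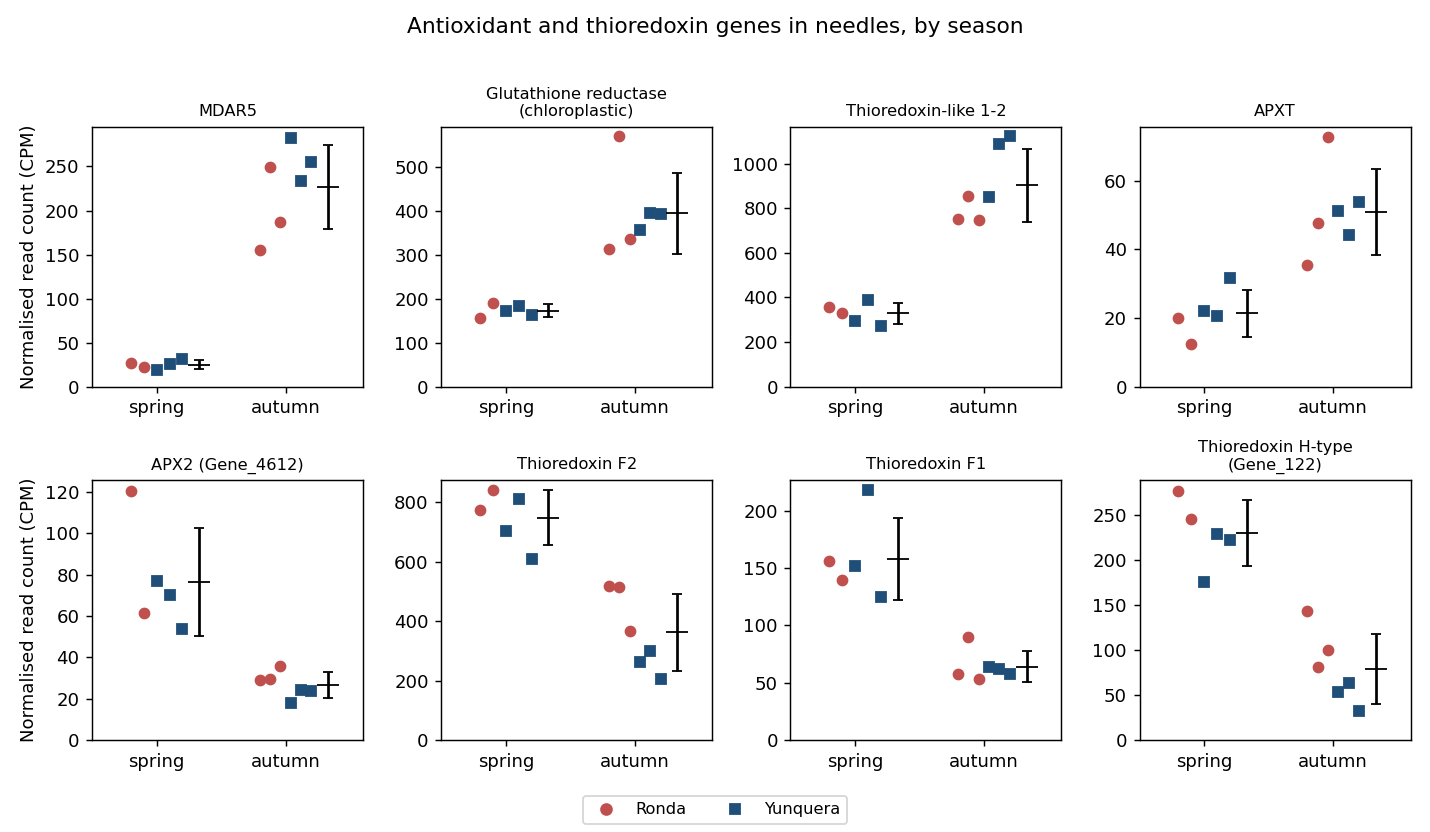
Normalised read counts (CPM) of 8 members in each needle library, spring left and autumn right; points are libraries, shaped by site, and the bar beside each group is its mean ± SD. In all 8 panels the 5 spring libraries do not overlap the 6 autumn libraries. MDAR5, glutathione reductase, thioredoxin-like 1-2 and APXT (Gene_15338) are lower in spring, and the other 4 are higher.

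Thioredoxins gave 11 higher and 1 lower of 42 tested in needles. The f-type thioredoxins of chloroplasts, which in the light activate enzymes of carbon fixation, were both higher in spring. Thioredoxin F2 (Gene_4387) had 775 and 842 CPM in spring needles of Ronda and 703, 811 and 610.1 CPM in those of Yunquera, against 207, 333 and 518 CPM as the lowest, median and highest in autumn. The ranges did not meet, and the log2 change was 1.11 ± 0.14 (edgeR adjusted p = 0.00147). Thioredoxin F1 (Gene_3900) averaged 158 ± 35.7 CPM in spring and 64.0 ± 13.4 CPM in autumn (1.27 ± 0.18, edgeR adjusted p = 0.00269).

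Several h-type thioredoxins, mainly cytosolic proteins, rose in spring needles as well. Thioredoxin H-type (Gene_122) had 276 and 245 CPM in spring needles of Ronda and 176, 229 and 222 CPM in those of Yunquera, against 32.6, 72.1 and 143 CPM as the lowest, median and highest in autumn. The highest autumn library stayed below the lowest spring one (1.65 ± 0.20, edgeR adjusted p = 0.00124). The abundant thioredoxin H4-2 (Gene_2837) averaged 742 ± 109 CPM in spring and 452 ± 85.1 CPM in autumn, a smaller rise of 0.65 ± 0.15. Both thioredoxin H4-1 features, Gene_10886 and Gene_6967, rose by 1.27 and 0.93, and a second H-type feature, Gene_70232, by 1.09. The other H-type features tested in needles, Gene_4146, Gene_5173, Gene_11448, Gene_12649 and ap_66200, were not called. The single-cysteine thioredoxin-like CXXS1 (Gene_67188) had the largest log2 rise among the 11 thioredoxins called, 2.31 ± 0.39, at the low level of 6.50 ± 3.79 CPM in spring and 1.29 ± 0.311 CPM in autumn. Smaller rises were called for thioredoxin-like 3-1 (Gene_6520, 0.57), thioredoxin-like 4 (Gene_82574, 0.87) and the thioredoxin domain-containing protein 9 homolog (Gene_7054, 0.69).

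The lower one was a chloroplast thioredoxin-like 1-2 (Gene_6133), with 357 and 329 CPM in spring needles of Ronda and 295, 389.7 and 271 CPM in those of Yunquera, against 749, 854 and 1124 CPM as the lowest, median and highest in autumn (-1.46 ± 0.13, edgeR adjusted p = 0.000307). Its autumn libraries all lay above its spring libraries. Thioredoxins of the m, x and y types, also chloroplast proteins, were not called; thioredoxin M-type Gene_4401, for instance, was at 0.38 ± 0.12 (edgeR adjusted p = 0.0696).

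Thioredoxin reductases gave 2 higher and 1 lower of 7. NTR2 (Gene_73781) and the mitochondrial NTR1 (Gene_36345) were higher in spring by 1.10 ± 0.21 and 1.34 ± 0.38 (edgeR adjusted p = 0.00987 and 0.0443), and the chloroplast NADPH-dependent fusion protein NTRC (Gene_73163) had a log2 change of -0.66 ± 0.17 (edgeR adjusted p = 0.0304). NTR2 passed in 17 of 18 alternative fits, and NTR1 and NTRC Gene_73163 in 8 of 18 each. A second NTRC feature (Gene_35969) was not called, at 33.4 CPM in spring needles and 30.0 CPM in autumn needles. Glutaredoxins gave 1 higher and 1 lower of 15: GRXS14 (Gene_69104), a chloroplast monothiol form involved in iron-sulphur cluster transfer in Arabidopsis, at 0.76 ± 0.13, and GRXC1 (Gene_10013) at -0.74 ± 0.21. No ferredoxin-thioredoxin reductase chain of 3 was called in needles. By the compartment written in the best-hit name, 5 of 49 chloroplast members were higher and 5 lower, and 17 of the other 71 were higher and 4 lower. With the libraries taken as labelled, 20 members were called in needles, 19 of them among the 31. Without the spring needle library of tree 4 (Ronda), 18 were called, and APX2 Gene_70037 then had an edgeR adjusted p of 0.0608.

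Fewer members were called in roots. Of 112 members tested, 3 were higher and 3 lower in spring, against 5.54% of all 18538 features tested in either direction, 2.41% higher and 3.13% lower. The member share, 5.36%, was near that background. The median log2 change was -0.05 over the members and 0.03 over all features. With the tree as a block, on the assumption that equal numbers mark 1 tree, 3 of the 6 stayed called and no other was added. With the 2 libraries taken as labelled, 2 were called in roots, 1 of them among the 6. Leaving out single root libraries gave 1 to 8 calls, the fewest without spring roots of tree 4 (Ronda); without spring roots of tree 6 or autumn roots of tree 6 (Ronda) 2 were called, and without spring roots of tree 1 or tree 2 (Yunquera) 3.

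The 3 members lower in spring roots were CDSP32 and 2 features with the same FTRC name. Among members with chloroplastic in the best-hit name, 1 was higher and 3 lower of 43, with a median of -0.03, against 2 higher and 0 lower of the other 69, with a median of -0.06. CDSP32 (Gene_6331), a plastid thioredoxin-like protein that supplies electrons to 2-Cys peroxiredoxin and is induced by drought in potato, had 14.6 and 5.12 CPM in spring roots of Ronda and 4.98, 15.7 and 5.68 CPM in those of Yunquera, against 78.1, 176 and 232 CPM as the lowest, median and highest in autumn roots. The groups were far apart, 9.21 ± 5.43 CPM in spring and 166 ± 56.3 CPM in autumn, an 18.0-fold lower mean in spring. The log2 change was -4.13 ± 0.49 (edgeR adjusted p = 0.00356), and -4.43 with the tree as a block (edgeR adjusted p = 0.00458). The catalytic chain of ferredoxin-thioredoxin reductase, FTRC (Gene_5362), had 0.732 and 1.42 CPM in spring roots of Ronda and 0.671, 1.43 and 0.465 CPM in those of Yunquera, against 5.25, 8.53 and 13.3 CPM as the lowest, median and highest in autumn roots. These did not overlap either (-3.18 ± 0.54, edgeR adjusted p = 0.0129; 0.0386 with the block).

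A second FTRC feature (Gene_31774) had no count in the 5 spring root libraries and 104 counts in the 6 autumn ones, at 1.00 CPM. Taking 3 counts over the spring group as its bound, 0.0283 CPM, it was at least 35.5-fold lower in spring (edgeR adjusted p = 0.0397). With the tree as a block it was no longer called (edgeR adjusted p = 0.176). All 3 of these members were higher in needles than in roots in both seasons. Of the 67 features in the list of light harvesting and photosystem proteins, 50 had counts; 16 of these were at 0 in all spring root libraries and 13 at 0 in all autumn root libraries. Their summed share was 0.0322 to 0.0607% in spring roots and 0.0337 to 0.106% in autumn roots. Among the 20 most abundant of them in needles, none was at 0 in all root libraries of a season, 19 had the higher root mean in autumn, and the median ratio of the autumn mean to the spring mean was 2.62. The part of green-tissue RNA in these 3 results was not tested. In the library labelled spring roots of tree 5, which was set aside for its 2.78% of photosystem transcripts, CDSP32 stood at 546 and FTRC Gene_5362 at 340.5 CPM on its plain total. With that library included as labelled, the root changes were -2.02 for CDSP32 (edgeR adjusted p = 0.216) and 0.16 for FTRC Gene_5362 (edgeR adjusted p = 0.954).

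The 3 members higher in spring roots had mean levels above 20 CPM in both seasons. APX2 Gene_70037 had 58.3 and 57.2 CPM in spring roots of Ronda and 44.3, 44.0 and 45.4 CPM in those of Yunquera, against 13.9, 21.3 and 31.7 CPM as the lowest, median and highest in autumn roots. The seasons did not overlap (1.21 ± 0.24, edgeR adjusted p = 0.0220; 0.0710 with the block). The thioredoxin domain-containing protein 9 homolog (Gene_7054), whose Arabidopsis name is At2g18990, averaged 93.5 ± 28.2 CPM in spring and 42.8 ± 10.3 CPM in autumn (1.19 ± 0.24, edgeR adjusted p = 0.0234; 0.0474 with the block). The monothiol glutaredoxin GRXS12 (Gene_40141) averaged 63.4 ± 10.1 CPM in spring and 28.0 ± 10.1 CPM in autumn (1.24 ± 0.28, edgeR adjusted p = 0.0316; 0.0580 with the block). Gene_70037 and Gene_7054 were the 2 members called higher in spring in both organs, 2 of the 22 in needles and 2 of the 3 in roots.

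The season change itself was then compared between organs in 1 fit of the 22 libraries, as needles minus roots. Of 121 members tested, 9 differed, 8 higher and 1 lower, against 3.62% of all 21600 features, 2.69% higher and 0.931% lower. The median difference was 0.14 over the members and 0.05 over all features. MDAR5 was the 1 lower, at -2.82 ± 0.24 (edgeR adjusted p = 1.11e-05). Its roots had 29.9 and 28.2 CPM in spring at Ronda and 36.7, 28.0 and 28.7 CPM in spring at Yunquera, against 31.7, 37.8 and 45.4 CPM as the lowest, median and highest in autumn, so the root seasons overlapped while the needle seasons stood apart.

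The 8 higher differences were those of chloroplast redox carriers, CXXS1 and 2 peroxidases. CDSP32 was at 699 ± 79.3 CPM in spring needles and 867 ± 259.5 CPM in autumn needles, with no call there, so the difference of 3.85 ± 0.48 (edgeR adjusted p = 0.000607) came with the low spring roots. FTRC Gene_5362 averaged 604 ± 176 CPM in spring needles and 391 ± 93.5 CPM in autumn needles, and its difference was 3.86 ± 0.50 (edgeR adjusted p = 0.000607). FTRC Gene_31774 was also called (edgeR adjusted p = 0.00328), with spring roots at 0, so its size is not given. Thioredoxin F2 differed by 1.41 ± 0.29 and thioredoxin F1 by 3.14 ± 0.70, the second with root levels of 0.575 ± 0.303 CPM in spring and 2.19 ± 1.23 CPM in autumn. APX6 (Gene_67257), an ascorbate peroxidase of uncertain activity, differed by 2.39 ± 0.53, CXXS1 Gene_67188 by 3.45 ± 0.86 and the glutathione peroxidase CSA by 1.89 ± 0.47. The last 2 calls were the least stable: CXXS1 passed in 14 of 29 alternative fits and CSA in 11 of 29, and CXXS1 stood at 6.19 without spring roots of tree 4 (Ronda) and at 1.68 with the libraries as labelled. With all libraries as labelled, 1 of these 9 (MDAR5) stayed called. Leaving out autumn roots of tree 3 (Yunquera) gave 15 calls in place of 9.

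**Figure D2:**
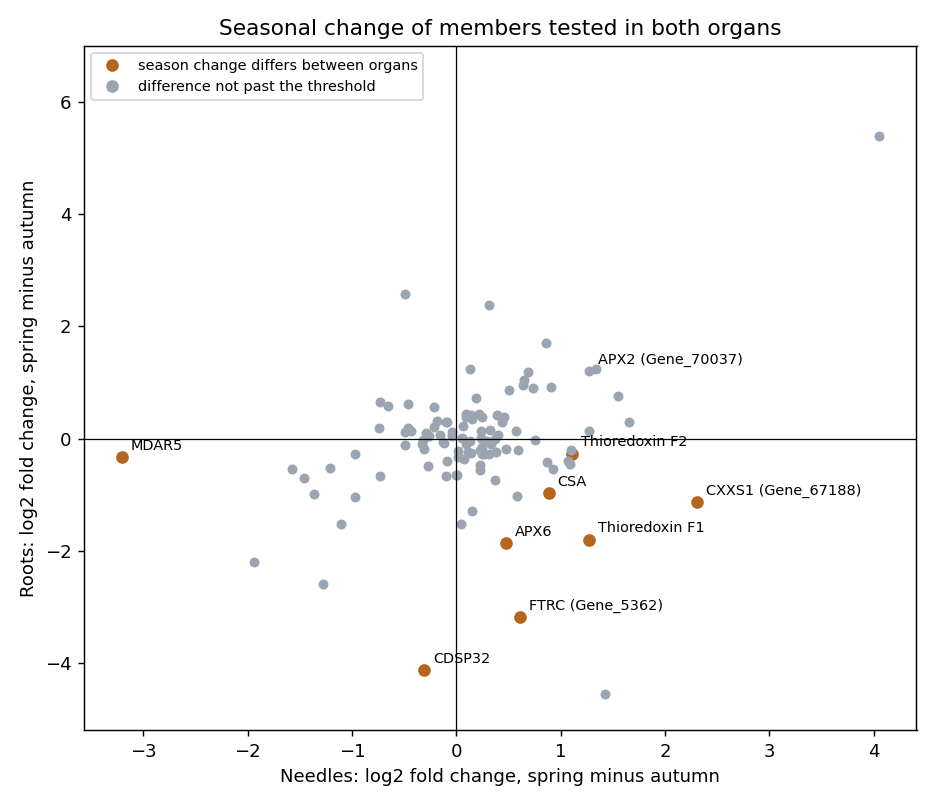
Log2 fold change of season (spring minus autumn), with needles on the x axis and roots on the y axis. The 110 members drawn were tested in both organs and had counts in both seasons of each organ, and 1 point is 1 member. The brown points are members whose season change differed between organs, with MDAR5 far to the left at a root change near 0, and CDSP32 and FTRC Gene_5362 low in spring roots. APX2 Gene_70037 is higher in spring on both axes.

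Members differed between organs in larger numbers. In spring 50 of 121 members were higher and 9 lower in needles than in roots, against 28.2% of all features in either direction, 19.3% higher and 8.94% lower. In autumn 46 were higher and 10 lower, against 32.3% of all features, 18.8% higher and 13.4% lower. The median log2 difference of the members was 0.93 in spring and 0.81 in autumn, beside 0.11 and 0.18 over all features, in that order of seasons; placing the members at 0 in 1 organ at their bound left both member medians the same. The higher calls of both seasons shared 40 members and the lower calls 7. Members named chloroplastic made up most of the higher calls, 32 higher and 1 lower of 49 in spring and 33 higher and 0 lower of 49 in autumn.

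Among electron donors, FTRC Gene_5362 stood at 604 ± 176 CPM in needles and 0.944 ± 0.450 CPM in roots in spring, a ratio of means of 640, and at 391 ± 93.5 CPM in needles and 8.92 ± 3.85 CPM in roots in autumn, a ratio of 43.8. FTRC Gene_31774 was at 23.7 ± 9.61 CPM in spring needles and 0 in spring roots, at least 837-fold higher. The remaining FTRC feature (Gene_5880) differed less, by 1.24 ± 0.23 in spring and 1.07 ± 0.20 in autumn, and was the most abundant of the 3 in roots. The thioredoxins of m type followed: Gene_5316 differed by 4.07 ± 0.26 in spring and 4.45 ± 0.23 in autumn, and Gene_4401 by 3.10 ± 0.17 and 2.67 ± 0.15, in the same order of seasons. Thioredoxin F1 differed by 8.05 ± 0.70 in spring and 4.91 ± 0.51 in autumn, CDSP32 by 6.22 ± 0.45 and 2.37 ± 0.33, and an NTRC feature (Gene_35969) by 3.60 ± 0.41 and 3.86 ± 0.36.

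Peroxide-removing members higher in needles included the chloroplast glutathione peroxidase GPX7 (Gene_23009). It had 682 and 639.9 CPM in spring needles of Ronda and 416, 653 and 627 CPM in those of Yunquera, against 54.2 and 34.8 CPM in spring roots of Ronda and 40.7, 50.5 and 43.6 CPM in those of Yunquera. No root library reached the level of any needle library in either season (3.77 ± 0.21 in spring and 3.76 ± 0.19 in autumn). Peroxisomal APX4 (Gene_3557) differed by 2.21 ± 0.17 in spring and 1.51 ± 0.15 in autumn, and the chloroplast copper-zinc superoxide dismutase SODCP (Gene_3326) by 1.85 ± 0.22 and 2.09 ± 0.20. A catalase isozyme 2 (Gene_3270) differed by 5.73 ± 0.63 and 4.09 ± 0.50. It was the 1 catalase called of 5 tested in each season. Gene_5667, with the same best-hit name, was not called. MDAR5 was higher in needles in autumn (2.55 ± 0.17) and was not called in spring.

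Of the members higher in roots, 8 of 9 in spring and 10 of 10 in autumn had no chloroplast in the best-hit name. APX2 Gene_4612 differed by -0.999 ± 0.24 in spring and -1.81 ± 0.22 in autumn, and APX2 Gene_70037 by -1.03 ± 0.27 and -1.13 ± 0.24. A thioredoxin H-type (Gene_11448) differed by -1.94 ± 0.48 and -1.86 ± 0.43, a CXXS1 feature (Gene_5944) by -1.65 ± 0.57 and -2.19 ± 0.51, and the peroxisomal monodehydroascorbate reductase MDAR2 (Gene_33260) by -1.04 ± 0.17 and -0.43 ± 0.15. The exception was the chloroplast-named GRXS12 Gene_40141, at -0.86 ± 0.24 in spring, and 0.20 ± 0.21 in autumn (edgeR adjusted p = 0.527). A different GRXS12 feature (Gene_349) was higher in needles, by 2.93 ± 0.19 and 2.55 ± 0.17. With the libraries taken as labelled, 24 members were called for organ in spring in place of 59, all of them among the 59.

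**Figure D3:**
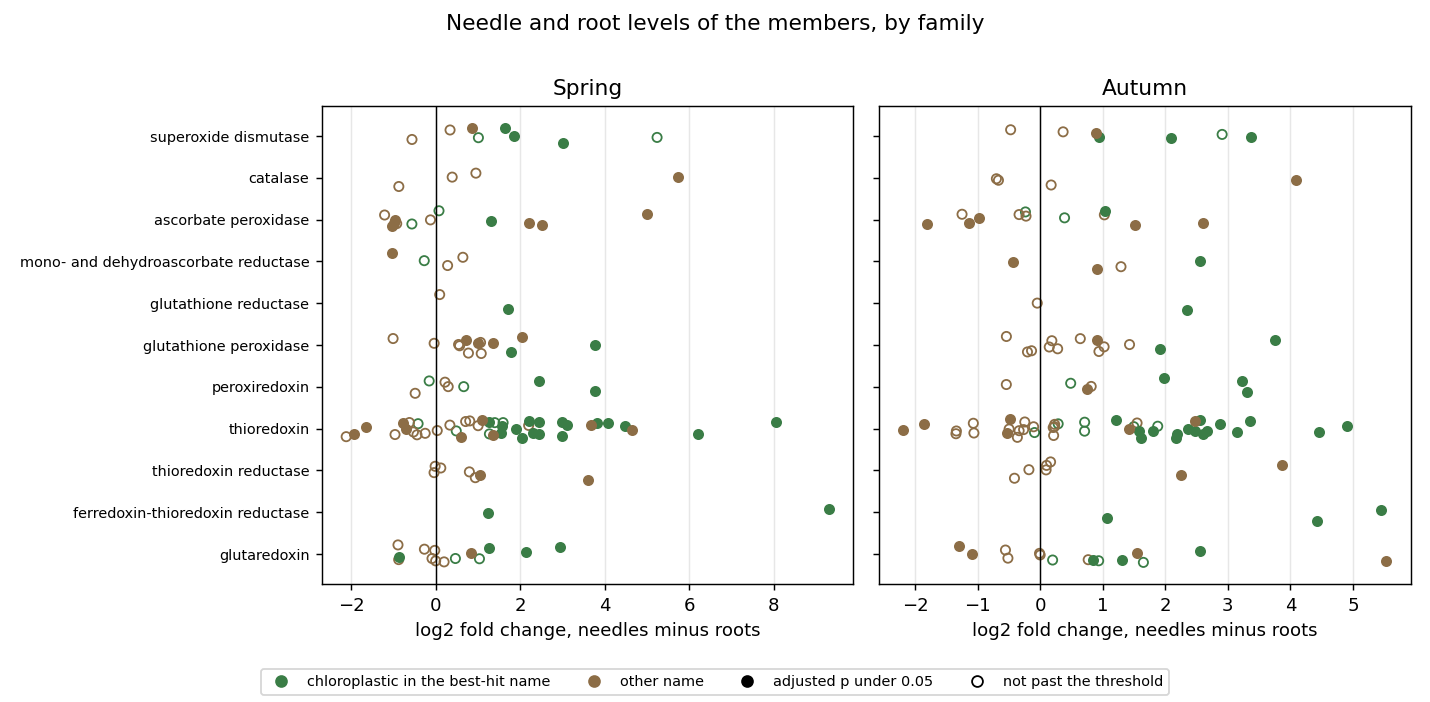
Log2 fold change, needles minus roots, of the members in spring (left) and autumn (right), 1 row per family; filled points passed the adjusted threshold, and green points have chloroplastic in the best-hit name. Members without a count in 1 organ are left out, which leaves 116 members in spring and 117 in autumn; green points lie mostly to the right of 0 and the filled points to the left are mostly brown.

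**Figure D4:**
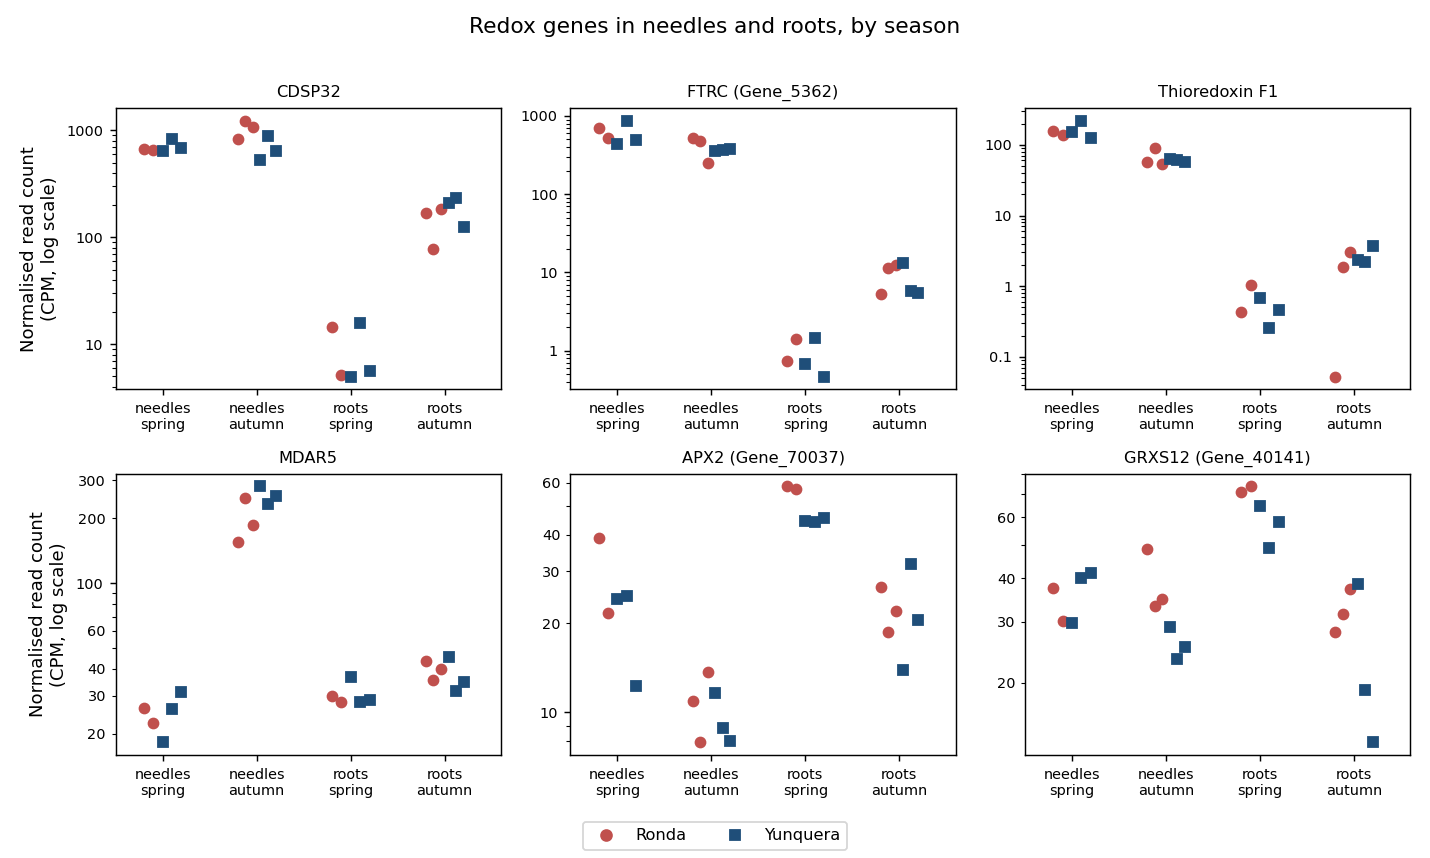
Normalised read counts (CPM, log scale) of 6 members in every library of needles and roots in spring and autumn; 1 point is 1 library, shaped by site. CDSP32, FTRC Gene_5362 and thioredoxin F1 are far higher in needles, MDAR5 stands apart in autumn needles, and APX2 Gene_70037 and GRXS12 Gene_40141 are highest in spring roots.

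Sites were compared within season and organ, with 2 or 3 libraries a group, so the precision was low. In autumn needles 2 of 120 members were called, both higher at Ronda, 1.67% against 1.71% of all features, 1.10% higher and 0.608% lower. The median log2 difference was 0.14 over the members and 0.01 over all features. The glutathione peroxidase CSA (Gene_7204) averaged 36.8 ± 8.34 CPM at Ronda and 16.3 ± 1.88 CPM at Yunquera (SD, n = 3 each), a log2 difference of 1.18 ± 0.24 (edgeR adjusted p = 0.0445). The peroxiredoxin-2 feature Gene_3494 had 41 counts at Ronda, 0.643 CPM, and none at Yunquera, at least 11.04-fold higher. Leaving out any 1 autumn needle library other than that of tree 4 ended both calls, and without that of tree 4 (Ronda) 1 stayed.

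No member was called for site in spring needles, autumn roots or spring roots, against 0.0, 0.0324 and 0.0% of all features; the autumn root background was 0.027% higher and 0.00539% lower. In the same order, 8, 10 and 6 members had an unadjusted p under 0.05, which is 6.67, 8.93 and 5.36% of those tested, against 10.5, 11.5 and 3.04% of all features. DESeq2 called 1, 4 and 0 members, against 3.29, 4.68 and 0.494% of all features it tested. The season change did not differ by site for any member in needles or in roots, against 0.0% of all features in both. There 9 members in needles (7.5%, against 6.66% of all features) and 3 in roots (2.68% against 4.01%) had an unadjusted p under 0.05. DESeq2 called 1 member in needles and 0 in roots, against 1.35 and 0.387% of all features.

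Catalases, which split hydrogen peroxide in peroxisomes, had levels that differed widely between trees. Catalase-2 (Gene_3546), the most abundant catalase, had 761 and 308 CPM in spring needles of Ronda and 3156, 3049.7 and 1053 CPM in those of Yunquera; in autumn needles its lowest, median and highest values were 391, 768 and 3619.8 CPM. In autumn needles the site difference was -2.18 ± 0.61 at an unadjusted p of 0.00544 and an edgeR adjusted p of 0.106, and 4 of the 5 catalases tested there had an unadjusted p under 0.05, as did 20.8% of the members and 19.4% of all features. The median site difference of the catalases tested was -2.18 in autumn needles and -2.43 in spring needles. In roots it was -0.64 in autumn and -2.36 in spring. The edgeR unadjusted p was under 0.05 for 2 of 5 in spring needles, 0 of 4 in autumn roots and 3 of 4 in spring roots. Over all features those shares were 10.5, 11.5 and 3.04%, and no catalase was called for site. Gene_5667, a catalase isozyme 2 feature, had 16.0 to 27.1 CPM in all 4 libraries of tree 4 and 71.8 to 1286 CPM in the libraries of the other trees. Gene_3270 had 1648 and 1430 CPM in spring and autumn needles of tree 5 and 227 to 473 CPM in the other needle libraries. In autumn roots of tree 5 it had 68.2 CPM, and the other root libraries had 5.86 to 26.3 CPM. These values were picked out after they were seen and have no test.

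**Figure D5:**
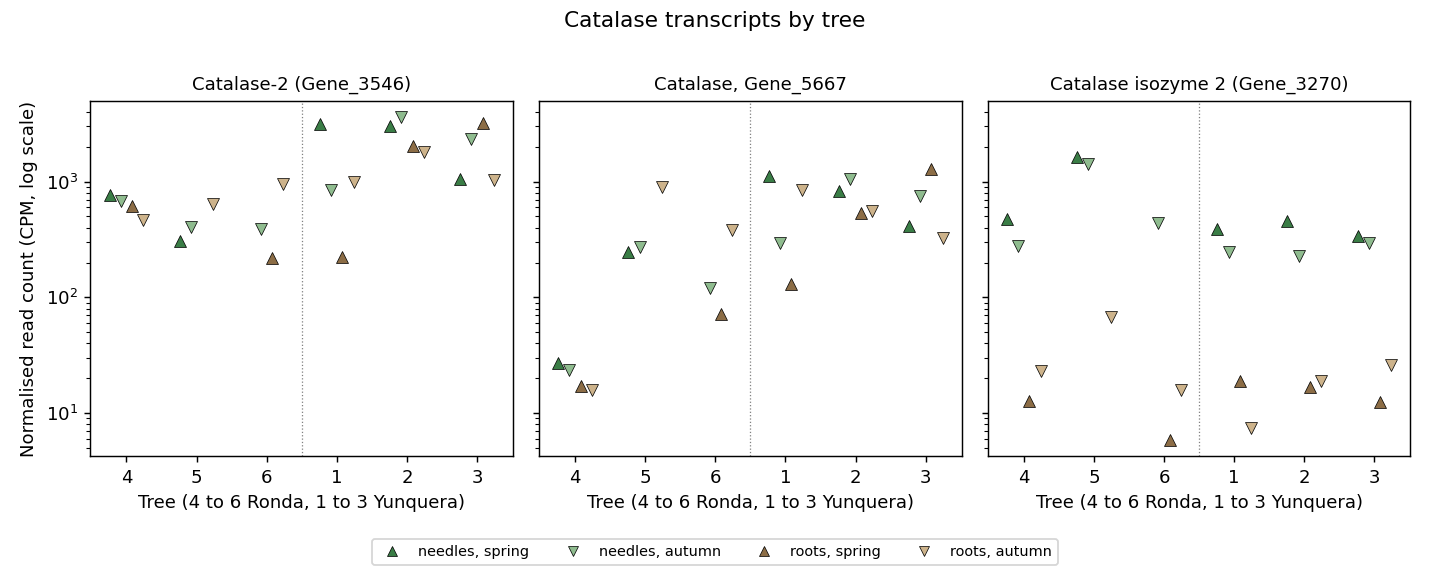
Normalised read counts (CPM, log scale) of 3 catalase features in each tree, Ronda left and Yunquera right of the dotted line; each point is 1 library, green for needles and brown for roots, pointing up for spring and down for autumn. Gene_5667 is lowest in tree 4 in both organs and both seasons, and Gene_3270 is highest in the needles of tree 5.

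Genes around these enzymes were read from a list of 127 features, 72 of them with counts, and those named here were chosen after their values were seen. The list held ascorbate synthesis, features named for L-ascorbate oxidase or its homologs, glutathione synthesis, methionine sulfoxide reductases, ferritins and alternative oxidases. It also held respiratory burst oxidases, tocopherol enzymes, sulfiredoxin, ferredoxins with ferredoxin-dependent enzymes, and NADPH-forming dehydrogenases of the pentose phosphate pathway. In needles 17 of 63 tested were higher and 1 lower in spring, with a median log2 change of 0.13, against 8.79% higher, 6.49% lower and a median of 0.03 over all features. GDP-L-galactose phosphorylase, which catalyses the committed step of ascorbate synthesis, was at 1107 ± 485 CPM in spring and 431 ± 185 CPM in autumn for Gene_13529 (1.47 ± 0.12, edgeR adjusted p = 0.000194). It was also called for site in autumn needles, at 1.19 ± 0.16 (edgeR adjusted p = 0.0144). In that comparison 4 of 63 listed features were higher at Ronda and 0 lower, against 1.10% and 0.608% of all features. Further features named GDP-L-galactose phosphorylase, ap_3810, Gene_67327 and Gene_8197, were higher in spring by 1.47, 0.96 and 2.41. Features named for L-ascorbate oxidase homologs, such as Gene_16078 (2.79 ± 0.25) and Gene_10344 (2.51 ± 0.30), were higher in spring as well.

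In roots 2 of 61 listed features were higher and 3 lower in spring, with a median of -0.12, against 2.41% higher, 3.13% lower and a median of 0.03 over all features. The 2 higher were L-ascorbate oxidase homologs, Gene_16078 at 3.33 ± 0.53 and Gene_33873 at 2.56 ± 0.46. The 3 lower were ferritin-3 (Gene_4236), an iron store of plastids, at -1.50 ± 0.26, and the methionine sulfoxide reductases MSRA4 (Gene_9808) at -1.14 ± 0.28 and MSRA5 (Gene_7357) at -0.84 ± 0.21. When the season change was compared between organs, as needles minus roots, 3 of 63 listed features were higher and 0 lower. Over all features 2.69% were higher and 0.931% lower. The 3 were ferritin-3, MSRA4 and MSRB1 (Gene_8256), at 1.87 ± 0.29, 1.30 ± 0.28 and 1.74 ± 0.32.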

How the data were processed

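The authors deposited raw read counts per feature for 24 libraries, with a protein best hit for each feature. Per the submitters' processing notes, CASAVA, HISAT2 and featureCounts were used; no version is given in the sources used here, nor whether counting used strand. Directional and non-directional libraries were both made, per the labels' protocols, without a record by sample.

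The members and gene lists were chosen with earlier results of these data known. Counts were fitted with edgeR 4.0.16 (R 4.3.3, limma 3.58.1): features with a count of at least 10 in enough libraries and 15 in total were kept, scaled by TMM, and tested with the quasi-likelihood test on group means within 11 needle libraries, 11 root libraries or all 22. P-values were adjusted over all features tested in each of 11 comparisons, at 0.05. The fit was tested on simulated data. Alternatives were DESeq2 1.42.0, RLE scaling, no filter, all 24 libraries as labelled, a replicate block and single libraries left out. Members were named when called with a log2 change of at least 1 and 5 CPM, at most 20 a comparison (5 for site), with the most abundant of each family; others named were chosen after their values were seen. Deviations of same-numbered root libraries correlated between seasons (r 0.165 to 0.359 in 5 trees), so root numbers were taken as pairs. Pairs with different numbers were not compared, so the pairing is assumed. Spring roots of Ronda kept 2 libraries, whose deviations mirror each other, so trees 4 and 6 are not separate checks. Needles (-0.315 to 0.544) and organs (-0.0520 to 0.250) did not meet the limit of 0.1 in every tree. In needles only tree 1 fell below it (-0.315). Trees 2, 3, 4 and 5 had needle r of 0.244, 0.458, 0.385 and 0.544. No pair of replicates was a repeat of 1 library. Bounds use 3 counts and cover counting error only.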

Additional observations from a re-analysis of the deposited data

Results flagged for a closer look

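The seasonal change of 9 members differed between needles and roots by the interaction term of edgeR's quasi-likelihood test, given here as needles minus roots on the log2 scale. MDAR5 (Gene_31739) differed by -2.82, with the lower spring level in needles. CDSP32 (Gene_6331) differed by 3.85, FTRC Gene_5362 by 3.86 and FTRC Gene_31774 by a fitted 7.42, which is no measured size because its spring roots were at 0. Thioredoxin F2 (Gene_4387) differed by 1.41 and thioredoxin F1 (Gene_3900) by 3.14. APX6 (Gene_67257) differed by 2.39, CXXS1 (Gene_67188) by 3.45 and the glutathione peroxidase CSA (Gene_7204) by 1.89. Root levels of FTRC Gene_31774, thioredoxin F1, APX6 and CXXS1 reached at most 4.05 CPM in any root library. The part of the green-tissue RNA in roots, 0.0322 to 0.0607% of counts in spring and 0.0337 to 0.106% in autumn, was not tested.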

How the results depend on the processing

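Taking all 24 libraries as labelled gave 20 members called for season in needles, 2 for season in roots, 24 for organ in spring, 1 for season by organ and 0 for site in autumn needles; the change of FTRC Gene_5362 in roots was then 0.16, and the organ differences in seasonal change were -0.038 for thioredoxin F1 and -0.22 for APX6. DESeq2 called 16 members for season in roots, 19 for season by organ, 15 for site in autumn needles, 4 for site in autumn roots, 1 for site in spring needles and 1 for season by site in needles. For the first 3 these were 14.7, 16.7 and 13.0% of the members tested, against 15.3, 10.8 and 11.8% of all features that DESeq2 tested. Site calls in autumn needles numbered 0 without the low-count filter and 0 without the needles of tree 1.

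With the replicate block, 14 members were called for season in needles, all among the 31, and 3 in roots. The block fit without the needles of tree 1 called 33 in needles, 28 of them among the 31. Needle numbers did not meet the limit for pairing in tree 1 (r -0.315), so the needle block fits are a hint only. With tree 1 kept, the block put Catalase-2 (Gene_3546) in needles at -0.014 and APX1 (Gene_2842) in roots at 0.055. Without the needles of tree 1, Catalase-2 was at -0.22, and at -0.42 with the block too. With the number as a random term in limma, 1 member was called for site in autumn needles, and 0 without tree 1.

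Leaving out single libraries gave 18 to 35 members for season in needles, 1 to 8 in roots, 6 to 15 for season by organ and 0 to 1 for site in autumn needles. Members not called for season changed sign within these ranges: Catalase-2 -0.31 to 0.36 and glutaredoxin Gene_2944 -0.044 to 0.21 in needles, and in roots APX1 -0.24 to 0.11, Catalase-2 -0.54 to 0.18, Gene_2944 -0.49 to 0.031, GPXMC1 (Gene_3820) -0.22 to 0.057, AFRR (Gene_3715) -0.053 to 0.22 and SODCC (Gene_2831) -0.34 to 0.099. The cause was not tested. Over the members named in each comparison, direction and call were kept in 421 of 468 alternative values for season in needles (36 lost the call, 8 changed sign), 214 of 256 for season in roots (23 and 17), 213 of 261 for season by organ (46 and 2), 3 of 13 for site in autumn needles (10 and 0), 338 of 340 for organ in spring (2 and 0) and 380 of 380 for organ in autumn.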
